A study of Mus musculus with 16 samples.

Results

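The MYC and MAX network is a set of transcription factors that share a helix-loop-helix zipper and meet on the same partner proteins. The 10 genes described here are Myc, Mycn, Mycl, Max, Mxd1, Mxd4, Mxi1, Mnt, Mlx and Mlxip, taken by their Ensembl identifiers from a table of 57186 gene IDs. All 10 were found, and all 10 were among the 15206 genes with enough counts to be tested. They were listed because Myc stood higher in sham ventricles without TFEB, so the difference between genotypes under sham is given as a description with no test, as is every comparison of Myc that uses a sham library.

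The RNA came from left ventricles of C57/BL6N mice. The 4 groups of 4 biological replicates were wild type after sham surgery (WT sham), wild type after transverse aortic constriction (WT TAC), and mice lacking Tfeb in cardiomyocytes only, after each operation (cKO sham and cKO TAC). Constriction of the aorta loads the left ventricle with pressure. The sources used here do not give age, sex, the interval between operation and sampling, or which Cre line was used. Other cells of the ventricle keep Tfeb by design.

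MYC, MYCN and MYCL each pair with MAX, bind the E-box sequence CACGTG and raise transcription of genes for ribosomes, nucleotides and cell growth. MXD1, MXD3, MXD4, MXI1 and MNT compete for MAX and bring the SIN3 corepressors to the same sites, and MGA is a larger MAX partner in a repressive complex. MLX is a second hub that pairs with MondoA (Mlxip) and ChREBP (Mlxipl), which respond to glucose metabolites. In the heart, MYC is known as a growth-responsive gene and MYCN as a regulator of fetal myocardial growth, and TFEB itself binds a palindrome that contains the same E-box core.

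The libraries held 12946878 to 16347388 counts. Tfeb (ENSMUSG00000023990), the targeted gene, averaged 36.5 CPM (counts scaled to library size and TMM factor) after sham and 29.0 after TAC in WT, against 10.4 and 12.7 in cKO, and no cKO library reached the lowest WT library of the same operation. All 8 ventricular cardiomyocyte markers were present, with summed levels from 40750 to 76780 CPM. Summed T and B cell markers stayed between 0.553 and 2.20 CPM, and 1 of 4 neutrophil markers was at 0 in every library. Atrial markers were highest in WT sham replicate 3 with 2388 CPM and WT TAC replicate 4 with 796 CPM. WT sham replicates 2 and 4 followed with 249 and 130.5 CPM, while no cKO library was over 22.8 CPM. Atrial content thus differed between the genotypes, mostly under sham, and its part in their differences was not tested.

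Myc (ENSMUSG00000022346), the best-known growth activator of the network, was scarce in WT sham and higher in each of the other groups. Its level in WT sham was 2.90, 4.40, 2.07 and 2.63 CPM in replicates 1 to 4, a mean of 3.00 ± 0.997 (SD, n = 4). The level in cKO sham was 5.02, 8.34, 6.84 and 10.5 CPM, a mean of 7.67 ± 2.32. Every cKO sham library lay above every WT sham library. The difference was 1.35 on the log2 scale (SE 0.23), or 2.55-fold, and since it chose the genes it is given without a test. Of all tested genes, 4.00% were likewise higher in cKO sham without overlap.

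After constriction Myc stood at 7.43, 8.62, 6.47 and 9.26 CPM in WT TAC, a mean of 7.95 ± 1.24. In cKO TAC it stood at 12.8, 14.1, 13.0 and 15.7 CPM, a mean of 13.9 ± 1.32. The WT TAC level fell within the range of cKO sham, and cKO TAC was the highest group, with no library shared with the range of any other. The difference between TAC and sham, described here without a test because the sham libraries chose the gene, was 1.40 on the log2 scale (SE 0.23) in WT and 0.86 (SE 0.21) in cKO. The response in cKO minus that in WT was -0.55 (SE 0.31, 95% interval -1.19 to 0.10), also without a test.

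The rule that chose Myc names only the sham libraries, so the genotypes were tested under TAC, although the gene was listed with results of all groups known. Myc was 1.75-fold higher in cKO TAC than in WT TAC, a log2 difference of 0.81 (SE 0.21, 95% interval 0.38 to 1.24), and higher in 4 of 4 cKO TAC libraries than in any WT TAC library. The adjusted p of edgeR's quasi-likelihood test was 0.051 over all genes, just short of the threshold of 0.05, where 1.78% of tested genes passed in either direction. The adjusted p was 0.00917 with DESeq2's Wald test, 0.027 with limma voom and 0.0321 when the TAC groups were fitted alone, with log2 differences of 0.80, 0.81 and 0.81. Leaving out 1 library at a time gave log2 differences of 0.72 to 0.88 and adjusted p of 0.035 to 0.179. The call was made without WT sham replicate 1, 2 or 3, without cKO sham replicate 1 and without cKO TAC replicate 3. In 4.89% of tested genes the cKO TAC libraries were all higher than the WT TAC libraries.

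**Figure D1:**
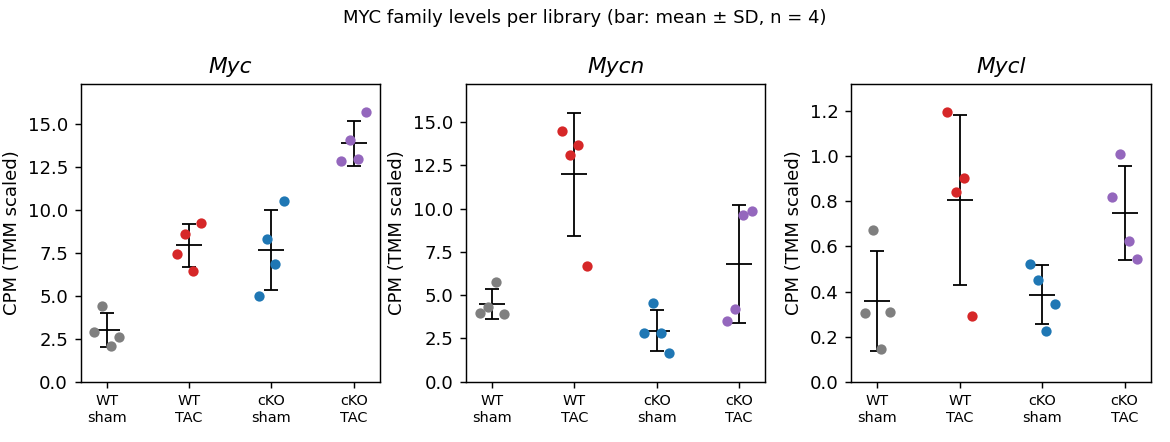
Levels of Myc, Mycn and Mycl in CPM on the vertical axis for the 4 groups on the horizontal axis; each point is 1 library and bars give the mean ± SD (n = 4). The 4 cKO TAC libraries lie between 12.8 and 15.7 CPM for Myc, above all others, while Mycn is highest in 3 of the 4 WT TAC libraries.

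Mycn (ENSMUSG00000037169), the paralog of the fetal heart, rose with constriction in both genotypes and did not follow Myc across genotypes. In WT it stood at 3.97, 4.32, 5.76 and 3.94 CPM after sham and at 14.5, 13.1, 13.6 and 6.70 CPM after TAC. These groups did not overlap, which held for 11.0% of tested genes in the higher direction. The rise in WT was 2.65-fold, or 1.41 on the log2 scale (SE 0.35, edgeR adjusted p = 0.0116). Mycn was the 1 of 9 tested members that passed in WT, where 15.8% of all tested genes passed. WT TAC replicate 4, the lowest of its group for Mycn, was also one of the 2 libraries highest in atrial markers. WT sham replicate 3, the other of these libraries, was the highest of its group for Mycn. Without both, the log2 rise was 1.75 (edgeR adjusted p = 0.00573). Leaving out the lowest TAC and the highest sham value had to widen the difference, so this fit is no check on the rise.

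In cKO the level of Mycn was 2.80, 4.52, 2.83 and 1.66 CPM after sham and 3.53, 4.23, 9.62 and 9.84 CPM after TAC. Replicates 3 and 4 of cKO TAC were high, while replicates 1 and 2 lay in the upper range of the sham libraries, so the groups overlapped. The rise was 2.30-fold (log2 1.20, SE 0.36, edgeR adjusted p = 0.0213), and Mycn was again the 1 of 9 tested members that passed, against 26.5% of all tested genes. This call was lost without cKO sham replicate 1, 3 or 4 (adjusted p = 0.0556, 0.0561 and 0.0659), without cKO TAC replicate 3 or 4 (0.0591 and 0.0734), with limma voom (0.0624) and with no filter on low counts (0.0835).

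The genotype difference of Mycn ran opposite to that of Myc in sign. Under TAC, the log2 difference of cKO from WT was -0.81 (SE 0.33, 95% interval -1.51 to -0.11), which did not pass (edgeR adjusted p = 0.215), and the groups overlapped. Under sham the described difference was -0.60 (SE 0.37). The response to TAC did not differ detectably between genotypes, with a log2 difference of responses of -0.21 (SE 0.50, edgeR adjusted p = 0.985).

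Mycl (ENSMUSG00000028654), the third activator, was near the limit of detection, with 2 to 18 counts per library. In WT it averaged 0.358 ± 0.222 CPM after sham and 0.808 ± 0.377 after TAC, and in cKO 0.385 ± 0.130 after sham and 0.749 ± 0.208 after TAC (SD, n = 4 each). The log2 difference between TAC and sham was 1.14 (SE 0.47, edgeR adjusted p = 0.108) in WT and 0.93 (SE 0.46, edgeR adjusted p = 0.147) in cKO. Neither passed. In WT, Mycl passed without WT sham replicate 2 (1.63, adjusted p = 0.0475) or without WT TAC replicate 4 (1.43, adjusted p = 0.0378). The cKO TAC libraries, from 0.543 to 1.01 CPM, lay above all cKO sham libraries, from 0.223 to 0.521 CPM, as 15.5% of tested genes did. The genotypes under TAC differed by -0.10 on the log2 scale (SE 0.42, 95% interval -0.97 to 0.78).

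To set the paralogs side by side, levels were divided by the length of their merged exons (RPKM, the CPM per kilobase of exon). In WT sham Mycn stood at 1.37 RPKM and Myc at 1.10, with overlapping ranges of 1.20 to 1.75 and 0.760 to 1.62, and Mycl at 0.0887. In cKO TAC the order was Myc at 5.12 RPKM, Mycn at 2.06 and Mycl at 0.185, with no overlap between neighbours. Of the summed RPKM of all 3 genes, Myc made up 42.7% ± 9.38 after sham and 44.3% ± 12.2 after TAC in WT, and 73.2% ± 9.68 and 70.5% ± 8.89 in cKO (SD, n = 4 each).

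By library, the share of Myc separated the genotypes under sham. All cKO sham libraries (65.3% to 86.8%) lay above all WT sham libraries (29.9% to 52.3%). Under TAC, WT replicates 1 to 3 lay at 35.3% to 43.1%, while WT TAC replicate 4 at 61.8% overlapped with cKO TAC (60.9% to 78.8%). The summed level after sham was 2.56 ± 0.382 RPKM in WT and 3.81 ± 0.833 in cKO, and after TAC 6.76 ± 0.889 in WT and 7.37 ± 1.28 in cKO. These shares rest on the Myc values that chose the genes and have no test.

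**Figure D2:**
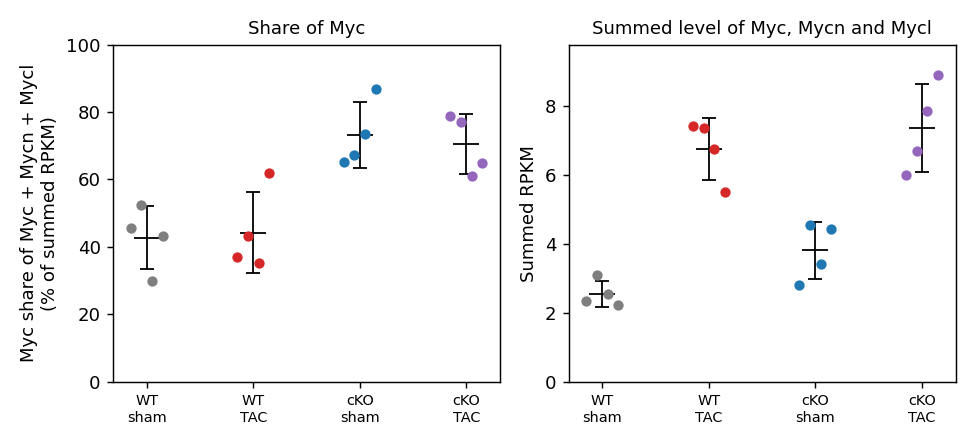
Left, the share of Myc in the summed RPKM of Myc, Mycn and Mycl, in percent; right, that sum in RPKM, for each library by group, with bars for the mean ± SD (n = 4). The share averages 42.7% and 44.3% in the WT groups and 73.2% and 70.5% in the cKO groups, while the sum is highest in the TAC groups.

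Max (ENSMUSG00000059436), the partner that every MYC protein needs, had the highest mean of the members per length in WT sham, at 15.9 ± 2.94 RPKM. In cKO TAC Max stood at 12.6 ± 1.08 RPKM and Mxd4 at 13.2 ± 1.61, with overlapping ranges. In WT its level was 50.3, 72.7, 54.5 and 50.8 CPM after sham and 42.1, 47.8, 57.8 and 55.0 CPM after TAC. In cKO it was 65.5, 54.1, 47.0 and 62.5 CPM after sham and 50.4, 45.7, 44.6 and 40.9 CPM after TAC. The groups overlapped in both genotypes. The log2 difference between TAC and sham was -0.17 (SE 0.13, edgeR adjusted p = 0.401) in WT and -0.34 (SE 0.13, edgeR adjusted p = 0.0676) in cKO. The value in cKO passed when those groups were fitted alone (-0.34, adjusted p = 0.0346), without WT sham replicate 2 (adjusted p = 0.0379) and without cKO sham replicate 3 (-0.42, adjusted p = 0.0364). Under TAC the genotypes differed by -0.16 (SE 0.13, edgeR adjusted p = 0.593).

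The E-box core was looked for in the promoters of the network, since these proteins and TFEB bind it. RefSeq promoter windows of GRCm38.p6, from 250 bases before to 50 after each start, held 9 of the 10 members, with Myc not among them. CACGTG, which reads the same on both strands, was found in those of Max, Mxd4, Mnt and Mlx, 4 of the 9, against 8.09% of 27025 genes. The longer TCACGTGA, which contains it, was found for Mlx alone, against 1.12% of genes. The windows around the match are printed 5′ to 3′ in the direction of the gene, with the match in capitals, because they show which bases flank the same core in each partner gene.
Max: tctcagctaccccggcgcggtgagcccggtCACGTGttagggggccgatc
Mxd4: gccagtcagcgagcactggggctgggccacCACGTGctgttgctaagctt
Mnt: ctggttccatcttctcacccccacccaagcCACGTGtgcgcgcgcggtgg
Mlx: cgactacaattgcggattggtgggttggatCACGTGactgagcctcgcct
The window of Max lies at chr12:76962232-76962281 on the minus strand and that of Mxd4 at chr5:34187910-34187959 on the minus strand. Those of Mnt and Mlx lie on the plus strand, at chr11:74830771-74830820 and chr11:101087220-101087269. The match began 3 bases before the start of Max, 219 before that of Mxd4, 123 before that of Mnt and 40 before that of Mlx. These coordinates are of GRCm38, while the counts were made on GRCm39. A match describes the letters only, and none of these 4 genes passed a test in any comparison of the main analysis.

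Mxd4 (ENSMUSG00000037235), a repressive MAX partner of resting cells, was the second most abundant member per length in WT sham, at 9.74 ± 1.46 RPKM. In WT its level was 76.9, 101, 73.8 and 78.9 CPM after sham and 104, 90.0, 91.3 and 89.8 CPM after TAC. In cKO it was 95.7, 94.2, 91.8 and 111 CPM after sham and 128, 117, 97.0 and 105 CPM after TAC. Replicate 2 of WT sham lay within the range of the other groups, and all groups overlapped with their neighbours. The log2 difference of cKO from WT under TAC was 0.26 (SE 0.11, 95% interval 0.03 to 0.48, edgeR adjusted p = 0.226). The log2 differences between TAC and sham were 0.18 (SE 0.11) in WT and 0.19 (SE 0.11) in cKO, and neither passed (edgeR adjusted p = 0.27 and 0.207). With scaling by library totals only, the difference in cKO was 0.39 and passed (adjusted p = 0.019).

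Mxd1, Mxi1 and Mnt, the other repressive partners on the list, passed no test. Mxd1 (ENSMUSG00000001156) averaged 7.72 CPM after sham and 8.38 after TAC in WT, and 7.67 and 8.91 in cKO. Mxi1 (ENSMUSG00000025025) averaged 44.3, 38.0, 46.4 and 40.6 CPM and Mnt (ENSMUSG00000000282) 18.8, 19.1, 21.7 and 21.7 CPM in the same order. Across the comparisons of TAC with sham and of the genotypes under TAC, their log2 differences ran from -0.22 (Mxi1, TAC in WT) to 0.22 (Mxd1, TAC in cKO). The 95% interval was widest for Mxd1 in WT, from -0.19 to 0.42 on the log2 scale. With library totals only, Mxd1 passed in cKO (0.41, adjusted p = 0.0477).

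**Figure D3:**
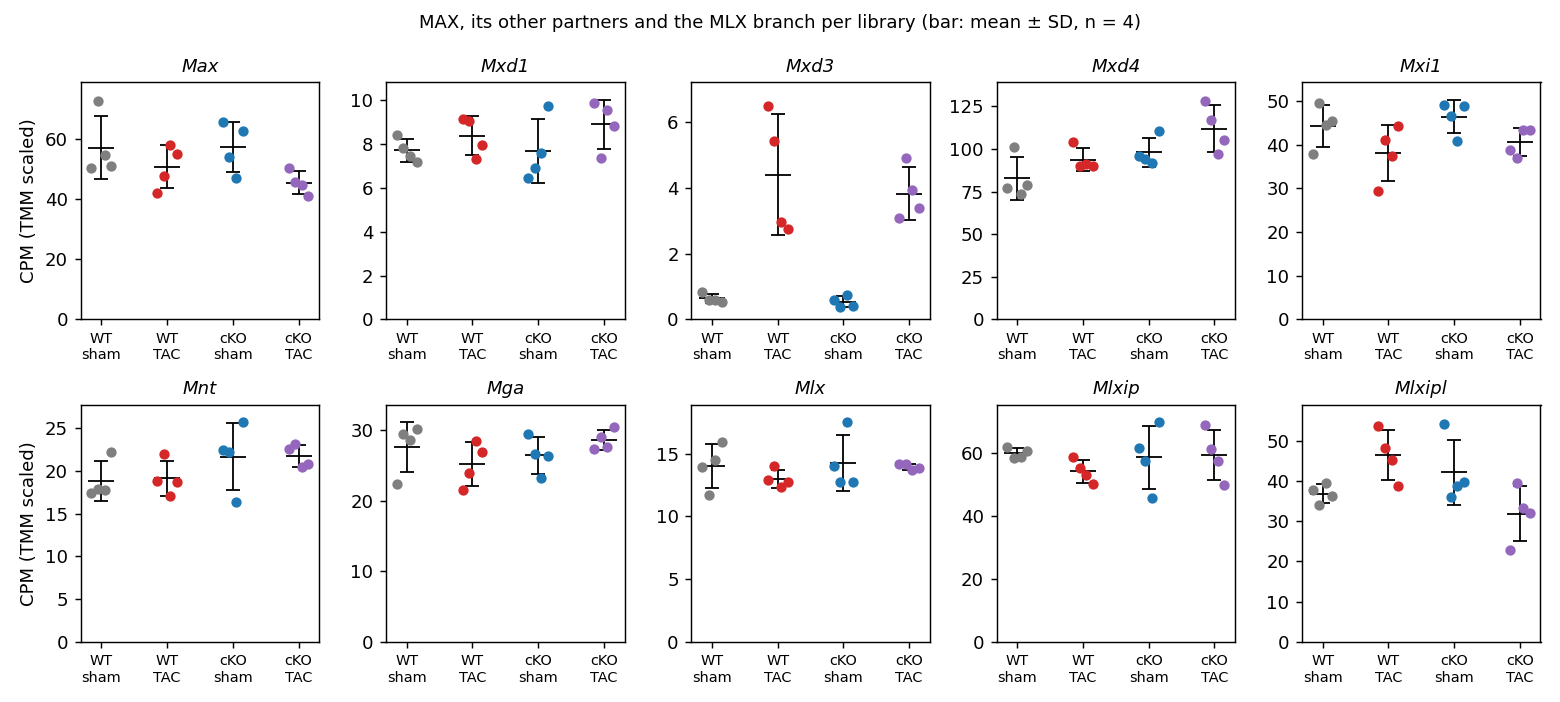
Levels in CPM on the vertical axis of Max, the MXD proteins, Mnt, Mga and the MLX branch for the 4 groups on the horizontal axis; each point is 1 library, with bars for the mean ± SD (n = 4). Mxd3 separates TAC from sham libraries in both genotypes, while Max, Mxi1 and Mnt overlap between groups.

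Mxd3 (ENSMUSG00000021485), the MXD gene known from dividing cells, is not among the 10 but belongs to the same family, and among the 13 network genes measured it had the largest fold change with TAC in each genotype. In WT it stood at 0.840, 0.596, 0.590 and 0.541 CPM after sham and at 6.50, 5.42, 2.98 and 2.74 CPM after TAC. The level in cKO was 0.586, 0.388, 0.744 and 0.415 CPM after sham and 3.09, 4.92, 3.93 and 3.38 CPM after TAC. No TAC library reached down to a sham library in either genotype. The rise was 6.77-fold in WT (log2 2.76, SE 0.33, edgeR adjusted p = 3.39e-05) and 7.14-fold in cKO (log2 2.84, SE 0.33, edgeR adjusted p = 2.74e-05). The genotypes under TAC differed by -0.20 (SE 0.27, edgeR adjusted p = 0.769).

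Proliferation markers moved with Mxd3, and their part in its level was not tested. All 6 markers rose with TAC in both genotypes, where 9.70% of all tested genes rose in WT and 14.2% in cKO. Their summed level lay at 8.57 to 13.1 CPM in WT sham and at 57.2 to 119 CPM in WT TAC. In cKO it lay at 9.59 to 18.0 CPM after sham and at 74.9 to 105 CPM after TAC. None of the 6 passed between the genotypes under TAC, where 1.78% of all tested genes passed. In bulk tissue more cells of a type and more RNA per cell cannot be told apart. Of the exons of Mxd3, 4.4% overlap with Prelid1 on the opposite strand, which had 10329 counts against 573 for Mxd3 over the 16 libraries, and counting by strand is not given in the sources used here. Mga (ENSMUSG00000033943) averaged 27.6 CPM after sham and 25.2 after TAC in WT, and 26.4 and 28.6 in cKO, and passed no test.

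In the MLX branch, neither listed gene passed a test. Mlx (ENSMUSG00000017801), the hub, averaged 14.0 CPM after sham and 13.0 after TAC in WT, and 14.3 and 14.0 in cKO. Mlxip (ENSMUSG00000038342), which encodes MondoA, averaged 60.0, 54.2, 58.7 and 59.4 CPM in the same order. Their log2 differences ran from -0.15 (Mlxip, TAC in WT, SE 0.11) to 0.13 (Mlxip, genotypes under TAC, SE 0.11). Since 19.3% of the exons of Mlx overlap with Psmc3ip on the opposite strand, its counts may include reads of that gene, which had 556 counts against 3261 for Mlx.

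Mlxipl (ENSMUSG00000005373), which encodes ChREBP and is not among the 10, had differences of opposite sign in the genotypes. In WT it stood at 37.7, 33.9, 39.5 and 36.3 CPM after sham and at 53.7, 48.1, 45.2 and 38.8 CPM after TAC. The level in cKO was 54.1, 36.1, 38.8 and 39.8 CPM after sham and 22.9, 39.4, 33.2 and 32.0 CPM after TAC. WT TAC replicate 4 lay within the sham range, and cKO TAC replicate 2 lay within both the WT TAC and the cKO sham ranges. The log2 difference between TAC and sham was 0.33 (SE 0.15, edgeR adjusted p = 0.132) in WT and -0.40 (SE 0.15, edgeR adjusted p = 0.0511) in cKO, and neither passed. The difference in cKO passed with DESeq2 size factors (adjusted p = 0.0468), DESeq2's Wald test (0.0375), limma voom (0.0467) and both other count filters (0.0462 and 0.0498). It also passed in 4 of 16 fits that left out 1 library, those without WT TAC replicate 1 or 4, cKO sham replicate 2 or cKO TAC replicate 2 (-0.41 to -0.53). It did not pass in the rest, and over all 16 fits it ran from -0.53 to -0.26, with adjusted p up to 0.208. With library totals only, the difference in WT passed (0.46, adjusted p = 0.0405).

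Under TAC, Mlxipl in cKO differed from WT by -0.54 on the log2 scale (SE 0.15, 95% interval -0.85 to -0.23, edgeR adjusted p = 0.0653). This value passed with DESeq2's Wald test (-0.55, adjusted p = 0.0206) and with no filter on low counts (-0.55, adjusted p = 0.0307), 2 of 9 alternatives that were not single-library omissions. It passed in 0 of 16 fits that left out 1 library (edgeR adjusted p = 0.0508 to 0.219). The response in cKO minus that in WT was -0.74 (SE 0.21), with an unadjusted p of 0.00243 and an edgeR adjusted p of 0.946. No gene of the 15206 passed that test of the difference between responses (0.00%). An unadjusted p under 0.05 was reached by 715, no larger a share than the 0.05 that chance alone would give. DESeq2 called 3 genes, none of them a member.

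**Figure D4:**
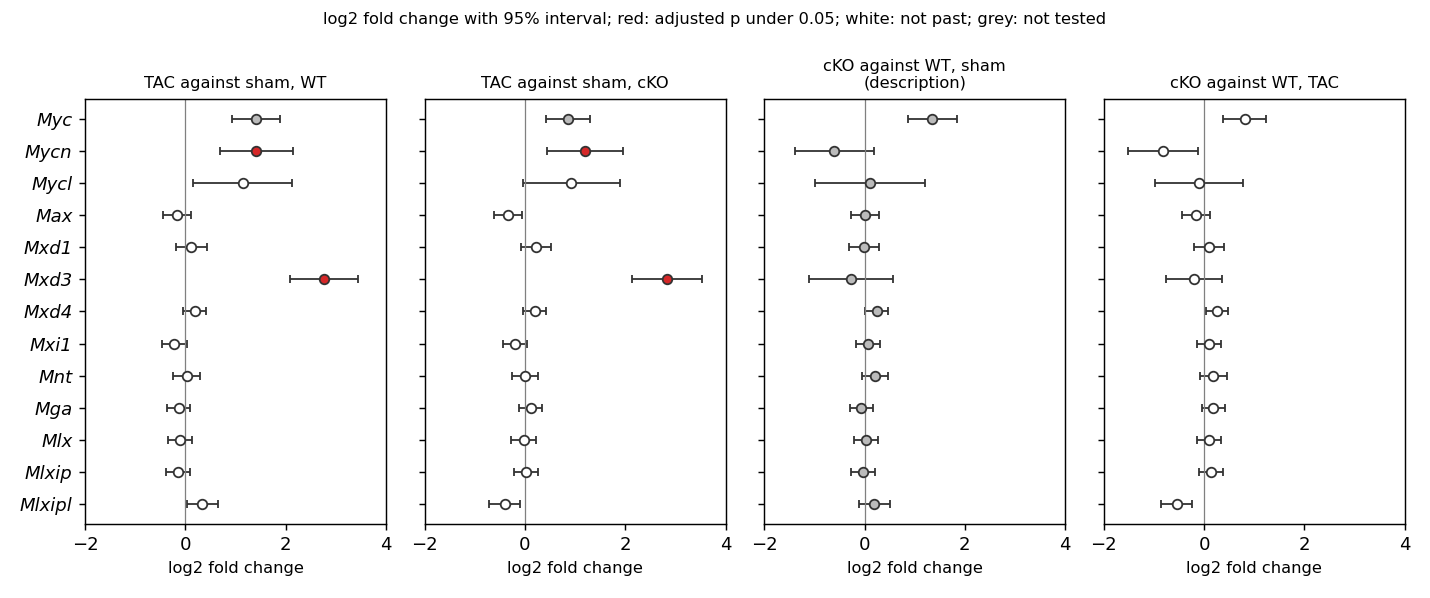
Log2 fold changes of the 10 members with Mxd3, Mga and Mlxipl in 4 comparisons, with 95% intervals; red points passed an adjusted p of 0.05, white points did not, and grey points were not tested. Mycn and Mxd3 passed in both comparisons of TAC with sham, and no gene of the network passed between the genotypes under TAC.

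Regulators of MYC stability were followed as a list of 14 genes, all tested. In WT, 3 rose and 1 fell with TAC, where 9.70% of all tested genes rose and 6.14% fell, and the median log2 difference of the list was 0.05 against -0.01 over all tested genes. Aurka, a mitotic kinase that shields MYCN from breakdown, rose 3.63-fold (SE 0.23 on the log2 scale, edgeR adjusted p = 4.59e-05), and Cip2a, an inhibitor of the phosphatase that destabilises MYC, rose 3.25-fold (SE 0.27, edgeR adjusted p = 0.000491). The others, named after their values were seen, were the ubiquitin ligase subunits Skp2 (2.75-fold, edgeR adjusted p = 0.00275) and Fbxw7 (0.596-fold, edgeR adjusted p = 0.00302).

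In cKO, 4 of the 14 rose and 1 fell with TAC, where 14.2% of all tested genes rose and 12.4% fell, with a list median of 0.10 against 0.00336 over all genes. Aurka rose 3.78-fold (SE 0.22, edgeR adjusted p = 2.74e-05) and Cip2a 3.41-fold (SE 0.27, edgeR adjusted p = 0.000185). The others, named after their values were seen, were Skp2 (1.81-fold), Gsk3b (1.20-fold) and Stub1 (0.781-fold). The call of Skp2 was lost without cKO sham replicate 3 or 4 or cKO TAC replicate 1 or 4, and that of Gsk3b was lost in 10 of 16 fits that left out 1 library. The proliferation markers above rose in the same comparisons, and their part in these values was not tested. Between the genotypes under TAC none of the 14 passed, where 1.78% of all tested genes passed.

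Cofactors that MYC and the MXD proteins recruit formed a list of 16 genes, and the shares of all tested genes that passed were 15.8% for TAC in WT, 26.5% for TAC in cKO and 1.78% between the genotypes under TAC. None passed in WT, with Hdac1, a SIN3-associated deacetylase, nearest (log2 0.25, edgeR adjusted p = 0.073). Hdac1 passed in cKO (0.25, SE 0.09, edgeR adjusted p = 0.0488), and it lost that call in 14 of 16 fits that left out 1 library. None passed between the genotypes under TAC, with Wdr5, a chromatin cofactor of MYC, nearest (-0.34, edgeR adjusted p = 0.0731; DESeq2 adjusted p = 0.0237; 0.0409 without WT sham replicate 1). The list medians were 0.02 in WT, 0.02 in cKO and -0.05 between the genotypes under TAC.

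Genes known to be activated by MYC, mostly for ribosome assembly, polyamines and translation, formed a list of 45. In WT 6 rose and 2 fell with TAC, where 9.70% of all tested genes rose and 6.14% fell, and the list median was 0.08. Gnl3, a nucleolar GTPase, rose 1.51-fold (SE 0.11, edgeR adjusted p = 0.00205), and Odc1, the first enzyme of polyamine synthesis, rose 1.42-fold (SE 0.10, edgeR adjusted p = 0.00334). In cKO 1 rose and 6 fell, where 14.2% of all tested genes rose and 12.4% fell, and the list median was 0.05. Hspd1, the mitochondrial chaperonin, stood at 0.663-fold (SE 0.10, edgeR adjusted p = 0.000403) and Las1l, a ribosome assembly factor, at 0.807-fold (SE 0.06, edgeR adjusted p = 0.00217). With library totals only, Las1l did not pass in cKO (adjusted p = 0.271). Of the 8 ventricular cardiomyocyte markers, 6 fell in the same comparison, with a median log2 difference of -0.54, and their part in these values was not tested.

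Between the genotypes under TAC, where Myc stood 1.75-fold higher in cKO, no gene of the activated list was called higher and 2 were lower, where 0.598% of all tested genes were higher and 1.18% lower, with a list median of 0.02 against 0.00438 over all genes. Hspd1 was 0.739-fold (SE 0.10, edgeR adjusted p = 0.0332) and Eif4e, the cap-binding translation factor, 0.721-fold (SE 0.11, edgeR adjusted p = 0.0426). Hspd1 lost this call without WT TAC replicate 2, 3 or 4, cKO sham replicate 4 or cKO TAC replicate 1, 2 or 4 (adjusted p up to 0.141). Eif4e lost it without those libraries and without WT sham replicate 2 or cKO sham replicate 1 (adjusted p up to 0.159). Both also lost it with library totals only (0.0504 and 0.0651), with the compared groups alone (0.0642 and 0.0678) and without the 2 atrial WT libraries (0.0639 and 0.0554). Ventricular cardiomyocyte markers had a median log2 difference of -0.39 in the same comparison, with 0 of 8 passing, and their part in these values was not tested. Under sham, described without a test, the activated list had a median of 0.05 against -0.01 over all genes. Its log2 differences of cKO from WT ran there from -0.42 (Tfrc) to 0.74 (Rrp12). Of the genes of this list named for the tested comparisons, Gnl3 stood there at 0.51 (SE 0.11) and Odc1 at 0.335 (SE 0.10). Las1l stood at 0.01 (SE 0.06), Eif4e at -0.04 (SE 0.11) and Hspd1 at -0.17 (SE 0.10).

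Genes known to be repressed by MYC formed a list of 6. Of all tested genes, 15.8% passed for TAC in WT and 1.78% between the genotypes under TAC. With TAC in cKO, 14.2% of all tested genes rose and 12.4% fell. The list medians were -0.08 in WT, -0.07 in cKO and 0.08 between the genotypes under TAC. None of the 6 passed in WT, with Ndrg2, a growth-restraining gene, nearest (-0.26, edgeR adjusted p = 0.0556 and DESeq2 adjusted p = 0.00602). It passed without cKO TAC replicate 1 or 3 (adjusted p = 0.0382 and 0.0436). In cKO Ndrg2 fell to 0.769-fold (SE 0.09, edgeR adjusted p = 0.00568) and Cdkn2b, an inhibitor of cell-cycle kinases, rose 2.70-fold (SE 0.39, edgeR adjusted p = 0.0113). Ndrg2 did not pass with library totals only (adjusted p = 0.0739), and Cdkn2b did not without cKO TAC replicate 4 (adjusted p = 0.0526). Cdkn1a was nearest between the genotypes under TAC (0.81, SE 0.33, edgeR adjusted p = 0.228).

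Among 6 tested targets of MondoA and ChREBP, 2 rose and 1 fell with TAC in WT, and 1 rose and 1 fell in cKO. Over all tested genes, 9.70% rose and 6.14% fell in WT, and 14.2% rose and 12.4% fell in cKO. Klf10, a Kruppel-like factor, rose 1.93-fold in WT (SE 0.22, edgeR adjusted p = 0.00729). Rgs16, a regulator of G protein signalling, rose 2.39-fold in WT (SE 0.33, edgeR adjusted p = 0.0146) and 2.53-fold in cKO (SE 0.35, edgeR adjusted p = 0.00842). Khk, which encodes ketohexokinase, fell to 0.647-fold in cKO (SE 0.15, edgeR adjusted p = 0.00544). In WT Khk, outside the naming rule and chosen after its values were seen, stood at 0.720-fold (edgeR adjusted p = 0.0376), a call lost without WT sham replicate 1 (adjusted p = 0.133) or WT TAC replicate 1, 3 or 4. None of the 6 passed between the genotypes under TAC, where 1.78% of all tested genes passed.

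Immediate early genes, the fast class of growth-responsive genes to which Myc belongs, formed a list of 17 tested genes. In each genotype 3 rose and none fell with TAC, Ier3, Egr2 and Egr3, where 9.70% of all tested genes rose in WT and 14.2% in cKO. The list median was -0.06 in WT and 0.34 in cKO. Ier3 rose 1.71-fold in WT (SE 0.13, edgeR adjusted p = 0.000738) and 1.42-fold in cKO (SE 0.13, edgeR adjusted p = 0.00742). Egr3 rose 2.60-fold in WT (SE 0.34, edgeR adjusted p = 0.0119) and Egr2 2.51-fold in cKO (SE 0.34, edgeR adjusted p = 0.00799). Between the genotypes under TAC none passed, where 1.78% of all tested genes passed. Ier3 was nearest (0.43, SE 0.13, edgeR adjusted p = 0.0821 and DESeq2 adjusted p = 0.0449), and the list median was -0.15. Ier3 passed without cKO sham replicate 3 or cKO TAC replicate 3 (adjusted p = 0.0478 and 0.0248). Under sham, described without a test, the list median for cKO against WT was -0.365, against -0.01 over all genes and opposite in sign to Myc. Its log2 differences ran there from -4.23 to 0.70. The summed level of the 18 listed genes varied widely in WT sham, from 447 to 1215 CPM, and lay at 474 to 577 CPM in cKO sham.

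**Figure D5:**
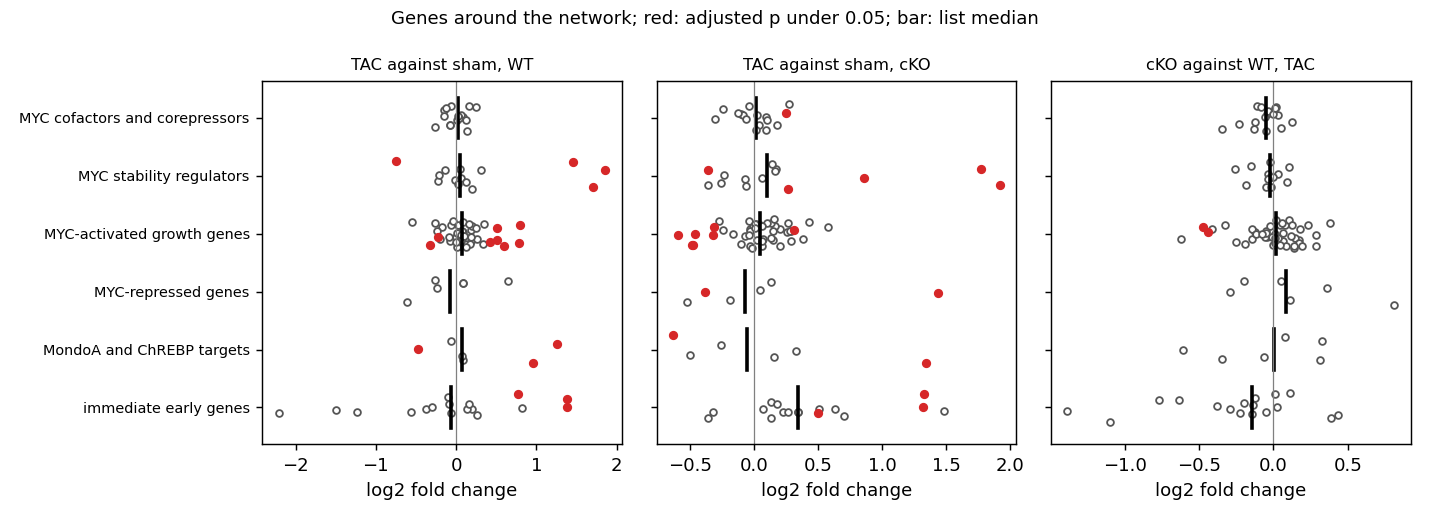
Log2 fold changes of each gene of 6 lists around the network in 3 tested comparisons; red points passed an adjusted p of 0.05, white points did not, and the black bar is the list median. List medians lie within about 0.1 of 0 for 5 of the 6 lists, the immediate early list reaches 0.34 for TAC in cKO, and between the genotypes under TAC the only genes past the threshold are 2 MYC-activated genes, both lower.

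Genes whose level followed Myc closely over the 16 libraries were picked by Pearson's correlation of log2 CPM, as a description. These libraries share their groups, so the correlation within groups is given too. Tmem63c, a membrane channel gene, had r = 0.945 (rho = 0.932, within groups 0.716), with group means of only 0.0755 CPM in WT sham and 1.04 CPM in cKO TAC. Sowahc had r = 0.923 (rho = 0.897, within groups 0.605).

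Anxa7, an annexin, had r = 0.895 (rho = 0.874) and Runx2, a transcription factor of bone, r = 0.893 (rho = 0.882). Fcgr3, an Fc receptor of myeloid cells, had r = 0.886 (rho = 0.874). Within groups these 3 had r of 0.273, 0.352 and 0.267. Among the members, Mxd4 was closest to Myc (r = 0.805, within groups 0.505).

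Summed macrophage, fibroblast and proliferation markers had their medians in the same order of groups as the mean of Myc. So did neutrophil markers, with low medians from 1.37 CPM in WT sham to 3.04 in cKO TAC. Summed endothelial, cardiomyocyte, erythrocyte, and T and B cell markers did not. The means of Myc in cKO sham and WT TAC were close, at 7.67 and 7.95 CPM, so the order of these groups says little. The medians there were 281 and 299 CPM for macrophage markers. They were 973 and 2280 CPM for fibroblast markers and 12.7 and 86.2 CPM for proliferation markers, unlike Myc. The endothelial medians were 892 CPM in WT sham, 837 in cKO sham, 1078 in WT TAC and 956 in cKO TAC. The summed macrophage and monocyte markers lay at 160 to 250 CPM in WT sham, 216 to 419 in cKO sham, 276 to 384 in WT TAC and 378 to 488 in cKO TAC. Of 6 tested, 4 rose with TAC in each genotype and 0 passed between the genotypes under TAC. The summed fibroblast markers lay at 682 to 1132 CPM in WT sham, 873 to 1450 in cKO sham, 1753 to 2786 in WT TAC and 2647 to 5409 in cKO TAC. Of 7, 4 rose with TAC in WT, 5 in cKO, and 1 was higher between the genotypes under TAC. Of all tested genes, 9.70% rose with TAC in WT, 14.2% rose in cKO, and 0.598% were higher between the genotypes under TAC. The part of these cell types in the level of Myc was not tested.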

How the data were processed

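The deposited file holds unnormalized counts, with a row for each Ensembl gene and a column for each library. Per the submitters' processing notes, featureCounts 2.0.6, HISAT2 2.0.5 and fastp 0.22.0 were used beside SAMtools 1.21 and FastQC, with build GRCm39. The annotation release, strandedness and treatment of reads with several matches are not given in the sources used here, so overlapping genes on opposite strands cannot be told apart. Symbols came from a GRCm38 annotation (GENCODE M21), which matched 51880 of 57186 IDs and 99.5% of counts. Exon lengths for RPKM and overlaps came from the same annotation.

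In R 4.3.3, edgeR 4.0.16 (filterByExpr, TMM, robust quasi-likelihood F-test) fitted 1 mean per group to all 16 libraries, with 12 residual degrees of freedom and a biological coefficient of variation of 16.5%. P-values were adjusted by Benjamini-Hochberg over 15206 genes for each comparison, with a threshold of 0.05. They judge each difference against the spread between libraries within groups, estimated over all 4 groups and shared in part across genes. Each SE is the log2 difference over the root of F. Data simulated for the genotypes under TAC (14974 genes) gave every gene the same biological coefficient of variation. Changes were placed only in genes above a minimum mean count. Of these, 98% of genes changed 2-fold and 36% of those changed 1.5-fold were recovered, with 8 false calls. The shares do not describe genes with few counts, such as Mycl, or genes with a wider spread.

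The members and gene lists were chosen with earlier results of these data known. Named genes are the members, Mxd3, Mga, Mlxipl, Tfeb, from each list and comparison the 2 with the smallest p past the threshold (1 where none passed), and the 6 most correlated with Myc (log2 CPM, prior count 2; predicted genes and pseudogenes left out). Some genes named by this rule are not reported here. Alternatives were DESeq2 1.42.0 size factors and Wald test, library totals only, 2 other count filters, limma 3.58.1 voom, the compared groups alone, a replicate block and leaving out each library. An alternative without the 2 WT libraries highest in atrial markers was added after seeing the data. It kept WT sham replicates 2 and 4, the next highest.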

Additional observations from a re-analysis of the deposited data

Results flagged for a closer look

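Among 56 sets of 4 libraries, each the level of 1 gene in 1 group, 2 had a library far from the other 3, and chance alone sets 1 library apart in about 1 in 20 such sets. Mxd4 stood at 104 CPM in WT TAC replicate 1, against 89.8 to 91.3 CPM in the other WT TAC libraries. Mnt stood at 22.2 CPM in WT sham replicate 4, against 17.4 to 17.8 CPM in the other WT sham libraries.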

How the results depend on the processing

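No result changed sign in a call under any alternative. The difference of Myc between the genotypes under TAC passed with library totals only (log2 0.897, adjusted p = 0.0377), no filter on low counts (0.797, 0.0127), the DESeq2 Wald test (0.801, 0.00917), limma voom (0.813, 0.027) and the compared groups alone (0.809, 0.0321), so that 1 member was called there in place of 0. It did not pass with DESeq2 size factors (0.80, 0.0535), a filter of 1 CPM in 4 libraries (0.806, 0.0514) or without the 2 WT libraries highest in atrial markers (0.891, 0.0512). Leaving out Myc, which is not tested against sham, the members called for TAC in cKO, 1 in the main analysis, were 3 with library totals only, 2 with the compared groups alone and 0 with no filter or limma voom. Leaving out each library gave, again leaving Myc out, 1 to 2 called members for TAC in WT and 0 to 2 for TAC in cKO, and, with Myc counted, 0 to 1 between the genotypes under TAC, where Myc ranged from 0.719 to 0.881. No member was called for the difference between responses under any alternative. The cause of these changes was not tested.

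With group means removed, r was over 0.1 in 4 of 24 same-numbered pairs of libraries and in 13 of 72 differently numbered pairs. Of 16 libraries, 5 were closest to one of their own number. These correlations cannot show whether the numbers mark pairs or batches, and the main analysis treated the libraries as unpaired. With the replicate number as a block, Myc under TAC differed by 0.817 (adjusted p = 0.031), and 1 member was called there.

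Library totals moved the median of all genes to 0.11 for TAC in WT and 0.196 in cKO, with 2170 higher and 432 lower in WT, against 1475 and 934, and 4013 and 877 in cKO, against 2154 and 1880. Between the genotypes under TAC they gave 116 higher and 118 lower, against 91 and 180. DESeq2 called 291 higher and 535 lower under TAC and 266 and 280 under sham, against 94 and 84, and no filter gave 312 lower under TAC and 135 under sham. The compared groups alone gave 79 lower under TAC, and the fit without the 2 atrial libraries 101, with 2 genes lower for the difference between responses. Leaving out each library gave 2 to 289 higher and 11 to 623 lower genes under TAC, and 33 to 117 higher and 26 to 105 lower under sham. Without WT TAC replicate 1, TAC in WT gave 897 higher and 337 lower. At 2 to 18 counts per library, Mycl could show only large differences.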
